A study of Mus musculus with 24 samples.

Results

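Flt1, the genes of 3 ligands of the vascular endothelial growth factor (VEGF) family, Vegfa, Vegfb and Pgf, and the neuropilin genes Nrp1 and Nrp2 were followed in 24 RNA-seq libraries. These 6 of the 56691 genes in each of the 2 expression tables were chosen by their symbol, and the set was picked because Flt1 is nearly absent from the RAW264.7 libraries labelled knockout. The values of Flt1 in those libraries are therefore given as a description, with no test, though they enter the spread estimate behind its test in wild type. The other comparisons were tested among 26740 genes in RAW264.7 and 26973 in BMDMs. All 6 genes had an FPKM (fragments per kilobase of transcript, scaled by library size) above 0 in at least 1 of the 12 libraries of each table.

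The series examined macrophages without Olfml3, a gene for a secreted olfactomedin-like glycoprotein, in the mouse macrophage-like line RAW264.7 and in bone marrow-derived macrophages (BMDMs). In both cell types wild type and Olfml3 knockout were sequenced after PBS or after 4 h of 100 ng/mL lipopolysaccharide (LPS, bacterial endotoxin), with 3 libraries in each of the 4 groups. Sequencing was of poly(A) RNA in paired reads, and the smallest and largest libraries held 11638273 and 16478616 counts for RAW264.7, and 17121240 and 22873094 for BMDMs. The instrument was one of 3 models and is not given for each library.

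The RAW264.7 knockout was made with guide RNAs delivered by lentivirus, and single sorted cells were grown into clones, so differences between these libraries and wild type include any between clones and uncloned cells. The methods name a single supplier for RAW264.7, and do not say whether the clones and the wild-type cells were taken from the same stock. The knockout BMDMs came from C57BL/6 Olfml3-/- mice made with CRISPR-Cas9, and BMDMs of both genotypes were grown from marrow of 8-week-old male mice. Wild-type RAW264.7 cells and wild-type (Olfml3+/+) BMDMs with PBS are the controls. The authors speak of biological replicates, but whether the 3 of a group are separate cultures or animals is not stated, so p-values measure the spread between these libraries and no more.

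The deposited genotype tag contradicts the sample title in 12 of 24 samples, and libraries were grouped by title. Olfml3 itself was read first as a check of these labels. In BMDMs it was at 0.61, 0.53 and 0.65 FPKM in wild type with PBS and at 0.03, 0.01 and 0.01 in knockout, and with LPS at 0.24, 0.25 and 0.25 in wild type against 0.01, 0 and 0 in knockout. In RAW264.7 it was at 0.19, 0.15 and 0.15 FPKM in wild type with PBS and at 0.65, 1.01 and 1.19 in libraries labelled knockout, and with LPS at 0.13, 0.13 and 0.29 against 18.9, 18.8 and 18.3. Olfml3 RNA was thus lower in every knockout BMDM library and higher in every RAW264.7 library labelled knockout, and the RAW264.7 libraries are called by their label below. Pooled Olfml3 counts of the labelled knockout, scaled by library totals, were 5.74 times those of wild type with PBS and 101 times with LPS. The cause of this excess, exchanged labels or a different line among others, was not tested. The wild-type RAW264.7 libraries too are named by their title only. Reads can still be counted on a gene that carries small insertions or deletions, so RNA level alone does not show whether a protein is made. The authors describe Sanger sequencing of the alleles in each RAW264.7 clone and clones with Olfml3 disrupted on both, which the deposited tables cannot show.

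One library stands apart. Among RAW264.7 cells labelled knockout and given PBS, replicate 1 correlated at 0.964 on average with the other libraries of its group and at 0.973 with wild type with PBS, while the other 23 libraries each correlated more closely with their own group than with the other genotype under the same treatment. Its FPKM summed over all genes, 356156, lies near wild type with PBS (361580, 357883 and 357349) and above replicates 2 and 3 (296109 and 295256). Its Flt1 and Olfml3 values nevertheless lie with its own group, and Vegfb, Nrp1 and Nrp2 in it lie near wild type. Results for the members that rest on it are given with and without it.

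VEGF ligands are secreted proteins that drive the growth and permeability of blood vessels. They bind receptor tyrosine kinases, of which Flt1 (VEGFR1) binds VEGF-A, VEGF-B and placental growth factor with high affinity but signals weakly, can act as a decoy through a secreted form, and is the VEGF receptor through which monocytes and macrophages migrate. Neuropilins are co-receptors without kinase activity that bind some VEGF isoforms and class 3 semaphorins, and macrophages are a known source of VEGF-A in hypoxic and inflamed tissue.

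The labelled cell types were checked against marker genes. Of 8 macrophage markers, 8 had a mean of at least 1 FPKM in each BMDM group and 7 in each RAW264.7 group, where Mertk had no counts in any library. The summed FPKM of these markers was 3402, 3376 and 3344 in wild-type RAW264.7 with PBS and 1420, 1145 and 1176 in the libraries labelled knockout, and with LPS 3929, 3880 and 4013 against 1227, 1215 and 1278. Lyz2 was the most abundant of them, at a mean of 2050 FPKM in wild type and 317 in the libraries labelled knockout with PBS. In BMDMs the sums were 15280, 15140 and 14850 FPKM in wild type with PBS and 17810, 16620 and 17810 in knockout, and with LPS 12640, 12370 and 12370 against 12870, 13080 and 13150. In BMDMs Lyz2 made up most of the sum, at means of 12300 FPKM in wild type and 14900 in knockout with PBS. With LPS these means were 9960 and 10800. Lyz2 was higher in knockout by more than the mean sum was, so the other markers together were lower there. The marker sum thus differs between genotypes along with Flt1 in both cell types. It was lower in the RAW264.7 libraries labelled knockout and, through Lyz2, higher in knockout BMDMs. The part of these markers in the Flt1 differences was not tested.

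Endothelial cells are the best known site of Flt1 expression. The sum of 8 endothelial markers stayed at or below 2.89 FPKM in RAW264.7, led by Egfl7, with Emcn at 0 counts in every group. In BMDMs the sum was 9.13, 8.76 and 8.78 FPKM in wild type with PBS and 13.5, 13.7 and 12.3 in knockout, and with LPS 3.99, 5.29 and 5.29 against 7.21, 7.45 and 7.44. Vwf made up most of it, at means of 8.60, 12.9, 4.38 and 7.01 FPKM in these 4 groups, while Cdh5 lay between 0.14 and 0.403, Tie1 at or below 0.0233, Emcn at or below 0.00333, and Cldn5 had no counts in any BMDM library. The higher Vwf in knockout BMDMs moves with Flt1, and its part in the Flt1 result was not tested. In bulk RNA, fewer cells that express a gene and less RNA per cell cannot be told apart.

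Stromal markers summed to at most 0.32 FPKM in RAW264.7 and 1.30 in BMDMs. Dendritic cell markers summed to at most 0.23 and 1.68 FPKM, with Ccr7 the most abundant in BMDMs with LPS. Neutrophil and granulocyte precursor markers summed to at most 0.73 FPKM in RAW264.7 and lay between 4.58 and 8.17 in BMDMs, led by S100a8, with Ly6g at 0 counts in every group of both cell types.

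The promoters of Flt1, Vegfa, Vegfb and Nrp1 are shown because these genes moved in different directions with LPS, and none of the 4 windows overlaps an exon annotated in GENCODE M21. All 6 genes have an entry in the RefSeq promoter table for GRCm38.p6. The 250 bases before the start site were searched on both strands for the cyclic AMP response element TGACGTCA, the hypoxia response element core ACGTG, the GC box GGGCGG, the TATA box TATAAA and the AP-1 motif TGANTCA, and matches are in capitals in the sequences, which read 5′ to 3′ on the gene's strand. The windows are chr5:147726012-147726261 for Flt1, chr17:46032378-46032627 for Vegfa and chr19:6987652-6987901 for Vegfb, all on the minus strand, and chr8:128358823-128359072 for Nrp1 on the plus strand.
Flt1: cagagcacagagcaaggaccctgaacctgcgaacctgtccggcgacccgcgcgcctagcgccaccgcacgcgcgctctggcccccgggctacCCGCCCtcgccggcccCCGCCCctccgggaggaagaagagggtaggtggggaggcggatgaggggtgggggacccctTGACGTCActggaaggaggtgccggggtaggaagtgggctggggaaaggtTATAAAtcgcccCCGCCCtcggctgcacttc
Vegfa: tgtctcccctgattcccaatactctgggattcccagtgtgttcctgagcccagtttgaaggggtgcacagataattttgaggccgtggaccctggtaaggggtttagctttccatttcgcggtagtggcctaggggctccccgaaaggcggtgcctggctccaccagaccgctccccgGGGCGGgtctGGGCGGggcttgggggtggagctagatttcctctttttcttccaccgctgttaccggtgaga
Vegfb: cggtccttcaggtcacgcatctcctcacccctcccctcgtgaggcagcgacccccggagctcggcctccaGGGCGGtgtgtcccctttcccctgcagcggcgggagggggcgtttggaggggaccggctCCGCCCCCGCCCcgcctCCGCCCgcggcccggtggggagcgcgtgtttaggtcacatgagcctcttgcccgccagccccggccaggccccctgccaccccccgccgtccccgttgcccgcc
Nrp1: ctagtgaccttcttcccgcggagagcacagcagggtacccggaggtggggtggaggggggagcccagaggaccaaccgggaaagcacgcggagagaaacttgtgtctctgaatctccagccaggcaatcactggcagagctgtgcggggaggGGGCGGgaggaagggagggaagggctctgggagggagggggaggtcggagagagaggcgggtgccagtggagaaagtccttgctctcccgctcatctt
The Flt1 window holds TGACGTCA from -81 to -74 and TATAAA from -31 to -26 relative to the start site, and 3 GC boxes. TGACGTCA occurs in 1.55% of the same 250-base windows of all 32851 promoter entries and TATAAA in 12.4%. The windows of Vegfa, Vegfb and Nrp1 hold neither of these, and have 2, 4 and 1 GC boxes, a motif found in 32.7% of all entries. The windows of Nrp2 and Pgf, which overlap exons and are not shown, hold neither TGACGTCA nor TATAAA. That of Nrp2, a gene that rose with LPS as Flt1 did in wild type, has 5 GC boxes. ACGTG (16.6% of entries) and TGANTCA (6.75%) are in none of the 4 windows shown. Vegfa has 2 entries in the table, and the window of the second, which overlaps an exon and is not shown, holds 1 ACGTG match from -211 to -207. The Vegfb matches include 2 GC boxes that lie end to end and print as 1 run of capitals. These are matches of letters in short windows, and none is read as a binding site.

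In the tables the genes are listed as Flt1 (ENSMUSG00000029648), Vegfa (ENSMUSG00000023951), Vegfb (ENSMUSG00000024962), Pgf (ENSMUSG00000004791), Nrp1 (ENSMUSG00000025810) and Nrp2 (ENSMUSG00000025969). The tables place Flt1 on the minus strand of chromosome 5 from 147498414 to 147662821. These table coordinates differ from those of GRCm38, which the sample records name, so the build behind them is not known and they are not set against the promoter windows.

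Vegfa encodes VEGF-A, the main angiogenic ligand, which binds Flt1 and Kdr. In wild-type RAW264.7 it was at 8.84, 8.73 and 10.1 FPKM with PBS and at 9.13, 8.93 and 9.67 with LPS. In the libraries labelled knockout it was at 7.78, 9.76 and 8.59 FPKM with PBS and at 10.6, 9.81 and 7.98 with LPS. All 4 RAW264.7 groups overlapped. In order, the group means were 9.46, 9.24, 9.21 and 8.71 FPKM, and no neighbours in that order were apart.

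In BMDMs Vegfa was at 21.7, 23.6 and 22.2 FPKM in wild type with PBS and at 2.02, 2.09 and 2.24 with LPS. In knockout BMDMs it was at 24.5, 23.99 and 23.9 FPKM with PBS and at 3.56, 3.31 and 3.67 with LPS. Every LPS library lay far below every PBS library, and every knockout library lay above every wild-type library of the same treatment. The group means in order were 24.1 ± 0.319 FPKM in knockout with PBS, 22.5 ± 0.971 in wild type with PBS, 3.51 ± 0.184 in knockout with LPS and 2.12 ± 0.112 in wild type with LPS (SD, n = 3), and neighbours in this order did not overlap.

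Vegfb encodes VEGF-B, a ligand of Flt1 that does not bind Kdr. In wild-type RAW264.7 it was at 38.3, 38.8 and 42.7 FPKM with PBS and at 11.2, 12.9 and 13.3 with LPS. In the libraries labelled knockout it was at 36.8, 25.4 and 24.6 FPKM with PBS and at 7.01, 7.47 and 7.43 with LPS. All LPS libraries were below all PBS libraries, and the libraries labelled knockout were below wild type under both treatments, with replicate 1 with PBS close to wild type.

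In BMDMs Vegfb was at 13.4, 13.8 and 12.9 FPKM in wild type with PBS and at 5.74, 5.16 and 5.63 with LPS. In knockout it was at 14.3, 13.8 and 14.2 FPKM with PBS and at 4.83, 5.33 and 6.19 with LPS. The 2 genotypes overlapped under each treatment and every LPS library was below every PBS library.

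Pgf encodes placental growth factor, a ligand of Flt1, and was barely counted. In RAW264.7 it had 2 counts over the 3 wild-type libraries with PBS, 7 in wild type with LPS, all from replicate 2, and 0 in the 6 libraries labelled knockout. In BMDMs it had 1, 2 and 2 counts in wild type with PBS, 1, 0 and 0 in knockout with PBS, 3, 4 and 7 in wild type with LPS and 10, 6 and 5 in knockout with LPS. The LPS libraries of BMDMs were all above the PBS libraries of their genotype, at a mean of at most 0.117 FPKM. Pooled counts, scaled by library totals, were with LPS 21.1 times those with PBS in knockout (95% exact interval for counting error alone 3.4 to 873) and 2.77 times in wild type (0.942 to 9.82). No fold is given for RAW264.7, where counts are too few.

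**Figure D1:**
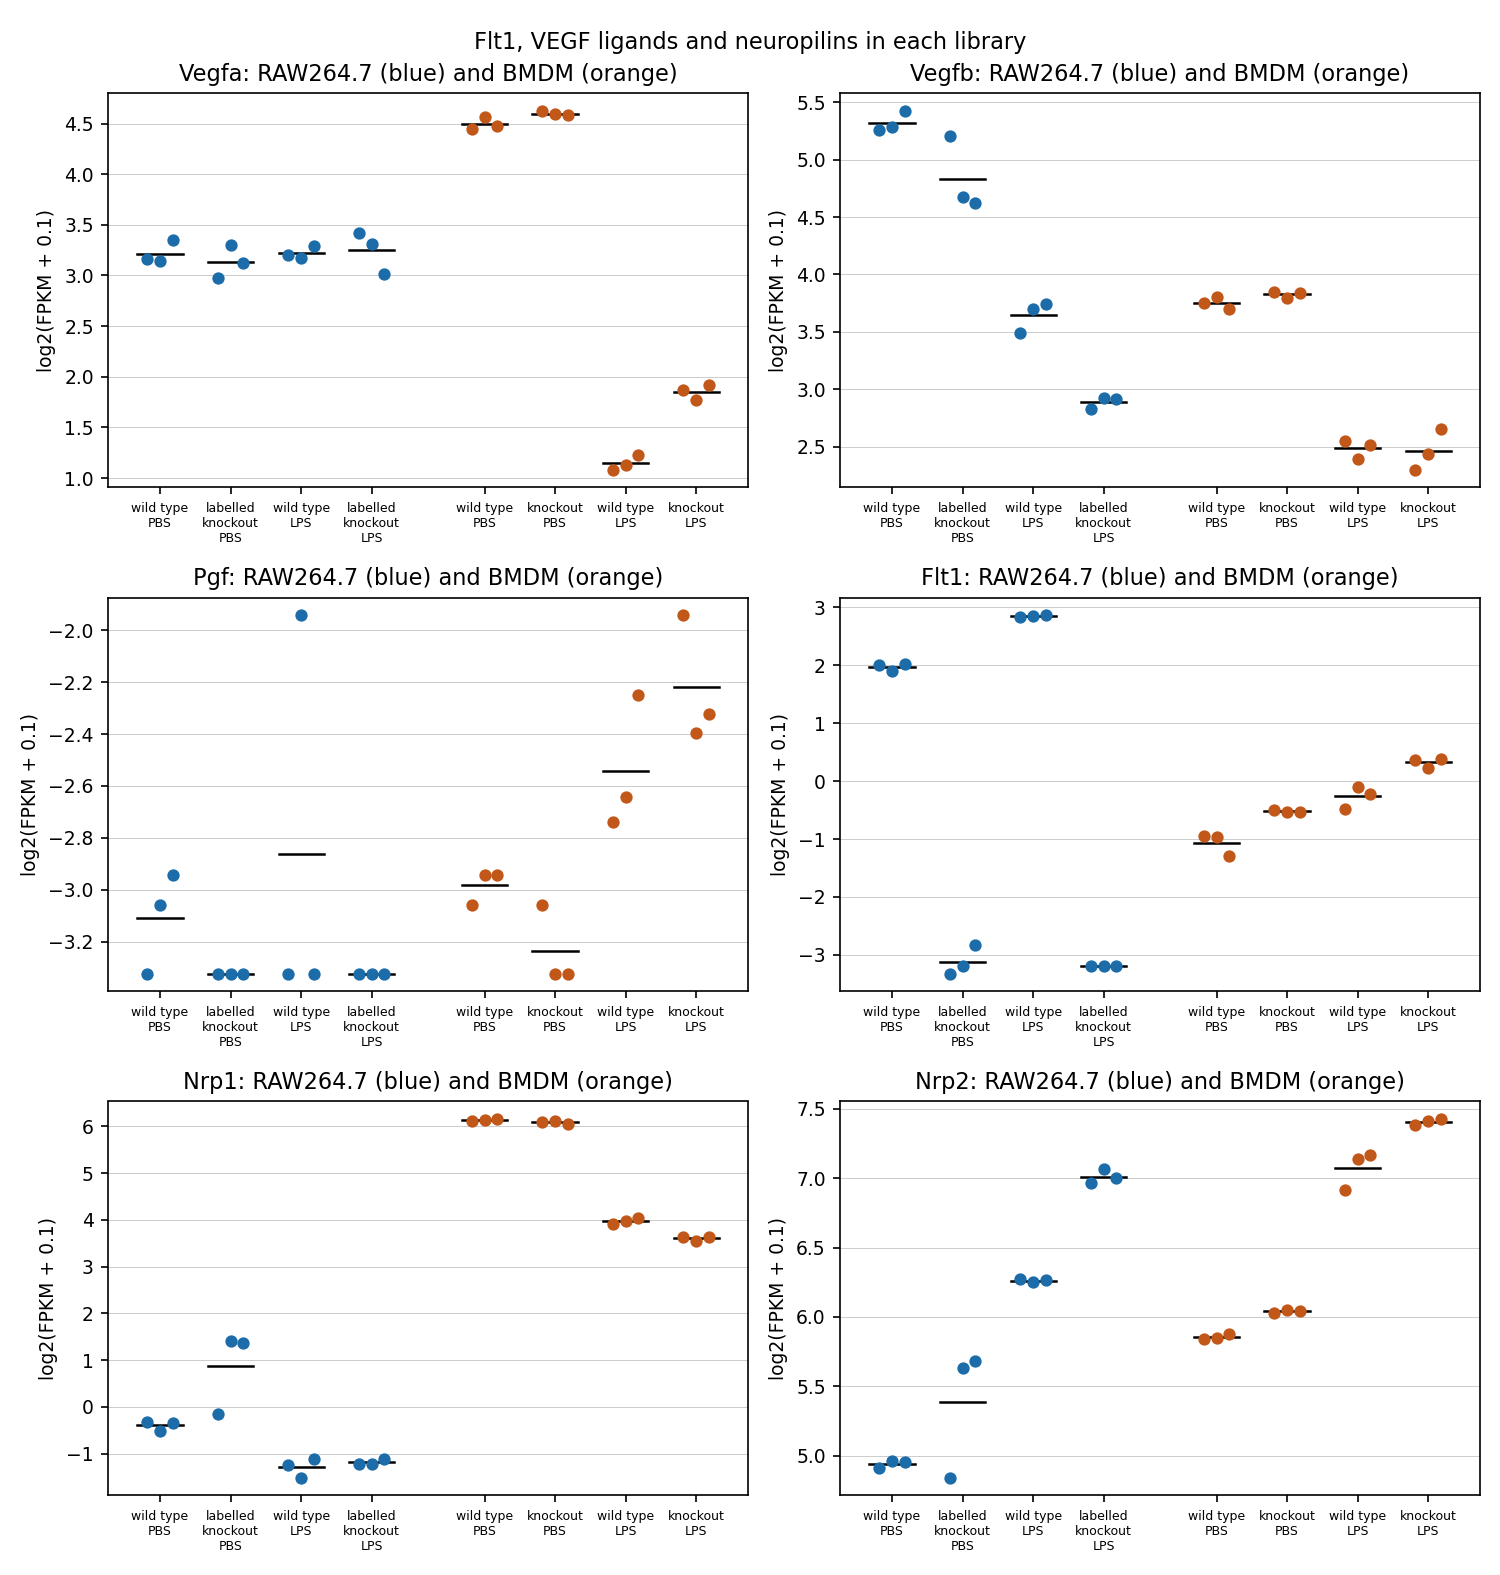
Levels of the 6 genes in each of the 24 libraries. Each panel shows log2(FPKM + 0.1) on the y axis by group on the x axis, RAW264.7 in blue and BMDMs in orange, with a point per library (replicates 1 to 3 from left to right) and a line at the group mean of the log2 values. The y ranges differ between panels. Flt1 is near the floor in all 6 RAW264.7 libraries labelled knockout, Vegfa is far lower with LPS in BMDMs and level in RAW264.7, and Nrp2 is higher with LPS in all 4 pairs of groups.

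Flt1 encodes VEGFR1, the receptor for all 3 ligands. In wild-type RAW264.7 it was at 3.90, 3.63 and 3.95 FPKM with PBS, from 704, 791 and 702 counts, and at 7.06, 7.11 and 7.16 FPKM with LPS, from 1221, 1413 and 1395 counts. In the libraries labelled knockout it had 1, 3 and 8 counts with PBS and 1, 2 and 2 with LPS, at or below 0.04 FPKM. The wild-type and labelled-knockout groups lie far apart under both treatments, which is the pattern the set was picked for. Pooled counts in wild type, scaled by library totals, were 201 times those of the labelled knockout with PBS and 712 times with LPS. These ratios rest on few counts, and with 1 labelled-knockout library left out they ran from 142 to 419 with PBS, where replicate 3 holds 8 of 12 counts, and from 611 to 795 with LPS.

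The replicate that stands apart among the libraries labelled knockout with PBS had the lowest Flt1 count of its group, 1. With LPS the labelled-knockout libraries held 5 Flt1 counts in all among 37063310, and with PBS 12 among 46818168.

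In BMDMs Flt1 was low. It was at 0.42, 0.41 and 0.31 FPKM in wild type with PBS and at 0.61, 0.59 and 0.59 in knockout with PBS. With LPS it was at 0.62, 0.83 and 0.76 FPKM in wild type and at 1.19, 1.07 and 1.2 in knockout. Every knockout library was above every wild-type library of the same treatment, and every LPS library was above every PBS library. The group means in order were 1.15 ± 0.0723, 0.737 ± 0.107, 0.597 ± 0.0115 and 0.380 ± 0.0608 FPKM (SD, n = 3) for knockout with LPS, wild type with LPS, knockout with PBS and wild type with PBS, and neighbours did not overlap. Pooled over a group, Flt1 had 340 counts in wild type with PBS and 955 in knockout with LPS. Scaled by library totals, the pooled counts of knockout were 1.57 times those of wild type with PBS (95% exact interval for counting error alone 1.36 to 1.81) and 1.56 times with LPS (1.41 to 1.72). Counts are per gene, so the membrane and secreted forms of Flt1 cannot be told apart.

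Nrp1 encodes neuropilin-1, a co-receptor for VEGF-A and semaphorin 3A. In RAW264.7 it was low, at 0.70, 0.60 and 0.69 FPKM in wild type with PBS and 0.32, 0.25 and 0.36 with LPS. In the libraries labelled knockout it was at 0.80, 2.56 and 2.48 FPKM with PBS and at 0.33, 0.33 and 0.36 with LPS. The LPS libraries were below the PBS libraries in both genotypes, and only replicates 2 and 3 of the libraries labelled knockout with PBS exceeded 1 FPKM.

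In BMDMs Nrp1 was abundant, at 69.1, 69.8 and 70.9 FPKM in wild type with PBS and 68.6, 69.1 and 65.9 in knockout. With LPS it was at 14.9, 15.7 and 16.4 FPKM in wild type and at 12.4, 11.6 and 12.3 in knockout. The LPS libraries were all below the PBS libraries, and the knockout libraries were below wild type by a small margin with PBS and a larger one with LPS.

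Nrp2 encodes neuropilin-2, a co-receptor for VEGF-A, VEGF-C and semaphorin 3F, and was the most abundant member in both cell types with LPS. In wild-type RAW264.7 it was at 29.9, 31.0 and 30.9 FPKM with PBS and at 77.3, 76.0 and 76.8 with LPS. In the libraries labelled knockout it was at 28.6, 49.4 and 51.4 FPKM with PBS and at 125, 134 and 128 with LPS. The LPS libraries were above all PBS libraries, the labelled-knockout libraries with LPS were above wild type with LPS, and with PBS replicate 1 again lay with wild type.

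In BMDMs Nrp2 was at 57.1, 57.6 and 58.7 FPKM in wild type with PBS and at 65.2, 66.2 and 66.0 in knockout. With LPS it was at 121, 141 and 144 FPKM in wild type and at 167, 170.0 and 172 in knockout. All 4 groups were apart, in the order knockout with LPS, wild type with LPS, knockout with PBS and wild type with PBS, which is the same order as that of Flt1 in these cells.

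Compared per length, Nrp2 was the most abundant member in wild-type BMDMs with LPS and Nrp1 with PBS, at 135 ± 12.5 and 70.0 ± 0.903 FPKM (SD, n = 3). In wild-type RAW264.7 Vegfb led with PBS and Nrp2 with LPS, at 39.9 ± 2.44 and 76.7 ± 0.657 FPKM. Flt1 was at 3.83 ± 0.172 FPKM in wild-type RAW264.7 with PBS and at 0.380 ± 0.0608 in wild-type BMDMs with PBS. The 2 tables were scaled separately and this difference was not tested.

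The response to LPS was tested with limma on log2(FPKM + 0.1). A gene was called when it changed at least 1.5-fold and its p, adjusted by Benjamini-Hochberg, was under 0.05. On this scale the change of low genes is understated. In BMDMs the median log2 change of the 10555 genes with a mean of at least 1 FPKM was -0.73 in wild type and -0.62 in knockout, so changes are also given relative to that median. In RAW264.7 the same medians were -0.21 in wild type and -0.23 in the libraries labelled knockout, over 11336 genes.

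In wild-type BMDMs LPS lowered Vegfa, Nrp1 and Vegfb and raised Nrp2 and Flt1, so 5 of 6 members were called, against 40.4% of all genes tested. Vegfa fell by 3.35 on the log2 scale (SE 0.0583, 10.2-fold, limma, Benjamini-Hochberg adjusted p = 6.08e-11), or by 2.62 relative to the median. Nrp1 fell by 2.16 (SE 0.0502, 4.46-fold, limma, Benjamini-Hochberg adjusted p = 3.35e-10), or by 1.43 relative to the median. Nrp2 rose by 1.22 (SE 0.0640, 2.33-fold, limma, Benjamini-Hochberg adjusted p = 7.92e-08) and Flt1 by 0.80 (SE 0.113, 1.74-fold, limma, Benjamini-Hochberg adjusted p = 0.000145), or by 1.95 and 1.53 relative to the median. All 3 LPS libraries showed each of these directions. Pgf, at few counts, had a difference of 0.44 (SE 0.152) and an adjusted p of 0.0361 in limma with Benjamini-Hochberg adjustment, and missed the fold threshold, which it passed as TPM, with median-ratio scaling, with edgeR without a filter and with DESeq2.

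Vegfb in wild-type BMDMs fell by 1.26 on the log2 scale (SE 0.0848, 2.40-fold, limma, Benjamini-Hochberg adjusted p = 5e-07), or by 0.53 relative to the median. With median-ratio scaling its difference was -0.47, under the fold threshold, and edgeR and DESeq2 on counts did not call it either. The call of Flt1 was lost with a pseudocount of 1, where its difference was 0.33.

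In knockout BMDMs all 6 members were called with LPS, against 38.9% of all genes. Vegfa fell by 2.75 on the log2 scale (SE 0.0583, 6.71-fold, limma, Benjamini-Hochberg adjusted p = 1.89e-10), Nrp1 by 2.48 (SE 0.0502, 5.57-fold, limma, Benjamini-Hochberg adjusted p = 1.43e-10) and Vegfb by 1.36 (SE 0.0848, 2.57-fold, limma, Benjamini-Hochberg adjusted p = 3.33e-07). Relative to the median these changes were -2.13, -1.86 and -0.74. Nrp2 rose by 1.36 (SE 0.0640, 2.57-fold, limma, Benjamini-Hochberg adjusted p = 4.21e-08), Pgf by 1.01 (SE 0.152, 2.02-fold, limma, Benjamini-Hochberg adjusted p = 0.000247) and Flt1 by 0.85 (SE 0.113, 1.80-fold, limma, Benjamini-Hochberg adjusted p = 0.000103). Relative to the median the rises were 1.98, 1.63 and 1.46. The calls of Flt1 and Pgf were lost with a pseudocount of 1.

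In wild-type RAW264.7 LPS raised Nrp2 and Flt1 and lowered Vegfb, so 3 of 6 members were called, against 18.3% of all genes. Nrp2 rose by 1.32 on the log2 scale (SE 0.188, 2.50-fold, limma, Benjamini-Hochberg adjusted p = 0.000506), Flt1 rose by 0.88 (SE 0.113, 1.84-fold, limma, Benjamini-Hochberg adjusted p = 0.000269) and Vegfb fell by 1.68 (SE 0.149, 3.20-fold, limma, Benjamini-Hochberg adjusted p = 2.06e-05), each in 3 of 3 libraries. Relative to the median the changes were 1.53, 1.08 and -1.47. Vegfa had a difference of 0.01 (SE 0.125, limma, Benjamini-Hochberg adjusted p = 1), which turned negative as TPM, at -0.02. With median-ratio scaling the Vegfa difference was 0.24, and it was not called. Nrp1 had a difference of -0.90 (SE 0.351, limma, Benjamini-Hochberg adjusted p = 0.101), and it was called in edgeR without a filter, and in limma without replicate 1 of the libraries labelled knockout with PBS, at -0.90 and an adjusted p of 0.000156, within a range of 0.000156 to 0.363 over its alternatives. The call of Flt1 was lost with a pseudocount of 0.01, where the adjusted p was 0.235, the highest of its alternatives, which went down to 3.95e-31. The SE and p of Flt1 use a spread estimated over all 12 RAW264.7 libraries. The 6 labelled knockout, for which Flt1 was picked, thus enter them. In wild type alone Flt1 ran from 3.63 to 3.95 FPKM with PBS and from 7.06 to 7.16 with LPS.

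In the RAW264.7 libraries labelled knockout, 3 of the 5 members tested were called with LPS, against 22.1% of all genes. The 5 include Pgf, which had no counts in any of these libraries and so could not be called. Nrp1 fell by 2.06 on the log2 scale (SE 0.351, 4.17-fold, limma, Benjamini-Hochberg adjusted p = 0.00137), Vegfb fell by 1.95 (SE 0.149, 3.85-fold, limma, Benjamini-Hochberg adjusted p = 5.58e-06) and Nrp2 rose by 1.63 (SE 0.188, 3.09-fold, limma, Benjamini-Hochberg adjusted p = 0.000101). Relative to the median the changes were -1.83, -1.72 and 1.85. Vegfa had a difference of 0.11 (SE 0.125), with 1 of 3 LPS libraries inside the range of the PBS group and 2 above it. Flt1, at 1 to 8 counts, was not tested. Without replicate 1 with PBS the same 3 members were called, at -2.57, -1.76 and 1.35, against 21.5% of all genes.

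**Figure D2:**
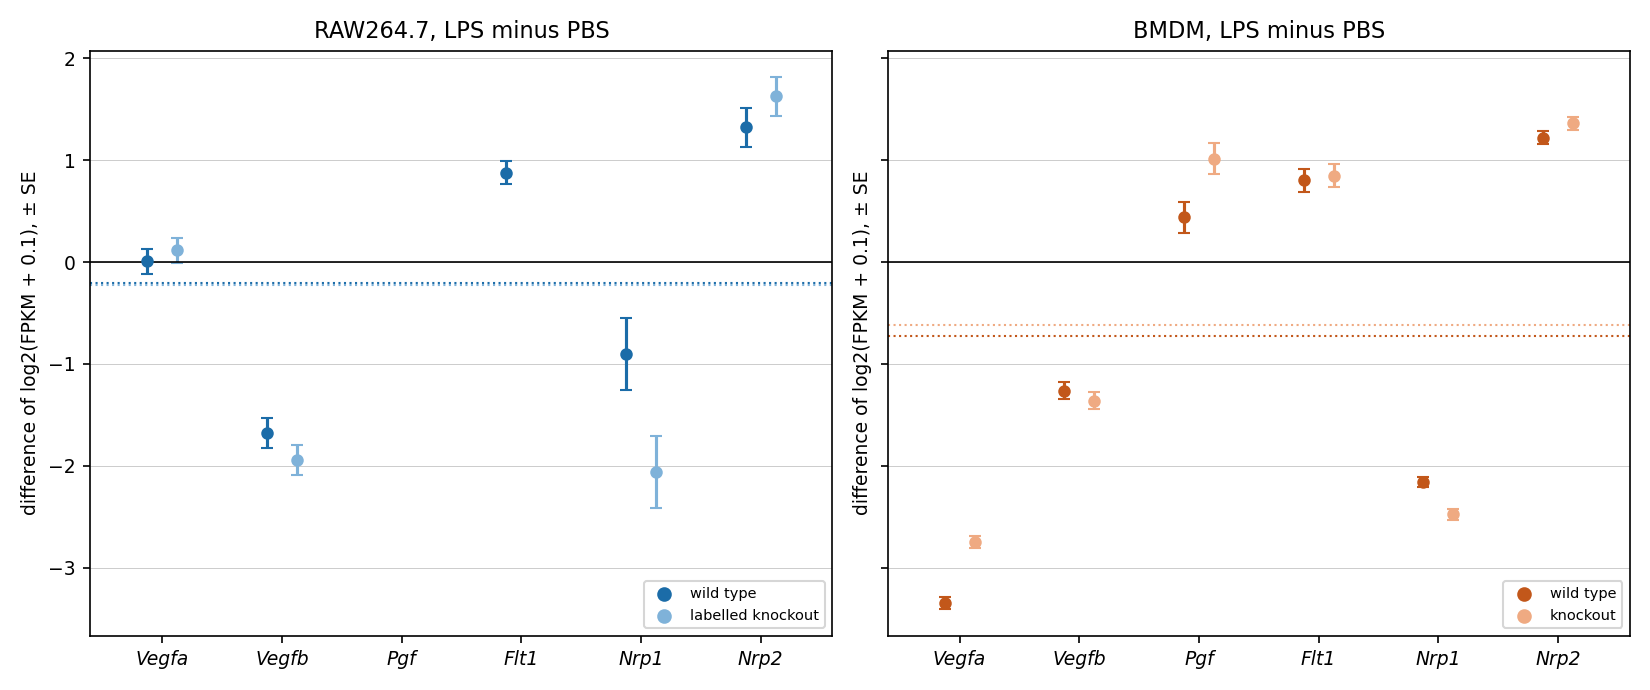
Differences between LPS and PBS for the 6 genes. The y axis gives the difference of mean log2(FPKM + 0.1) with its standard error from limma, for RAW264.7 on the left and BMDMs on the right, wild type in the dark and knockout in the light colour, and dotted lines mark the median of all genes with a mean of at least 1 FPKM. Nrp2 is above 1 and Vegfb below -1 in all 4 comparisons, while Vegfa is at -3.35 and -2.75 in BMDMs and at 0.01 and 0.11 in RAW264.7. Pgf in RAW264.7 and Flt1 in the libraries labelled knockout are not drawn.

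The knockout was compared with wild type in BMDMs. With PBS limma called 0 of 6 members, against 1.82% of all genes. At an unadjusted p under 0.05 limma had 2 members, and edgeR and DESeq2 each called 1, Flt1. Flt1 was higher in knockout in 3 of 3 libraries, by 0.55 on the log2 scale (SE 0.113, 1.46-fold, limma, Benjamini-Hochberg adjusted p = 0.027), which missed the fold threshold. Nrp2 was higher by 0.19 (SE 0.0640) at an adjusted p of 0.188 in limma with Benjamini-Hochberg adjustment, and Vegfa, Vegfb and Nrp1 differed by 0.10, 0.08 and -0.04.

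With LPS 2 of 6 members were called in knockout BMDMs, Vegfa and Flt1, against 4.76% of all genes. Vegfa was higher by 0.70 on the log2 scale (SE 0.0583, 1.63-fold, limma, Benjamini-Hochberg adjusted p = 6.56e-05) and Flt1 by 0.59 (SE 0.113, 1.5-fold, limma, Benjamini-Hochberg adjusted p = 0.00562), each in 3 of 3 libraries. The median of all genes with a mean of at least 1 FPKM was higher by 0.14, and relative to it the differences were 0.56 and 0.45. Both fell under the fold threshold with median-ratio scaling, at 0.56 and 0.46, with DESeq2, with a pseudocount of 1 and with edgeR after its filter. Flt1 also fell under it with edgeR without a filter, and without replicate 1 of wild type with LPS, or without replicate 1 or 3 of knockout with LPS, down to a difference of 0.49.

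Neither neuropilin was called in knockout BMDMs with LPS, as both differences were under the fold threshold. Nrp1 was lower by 1.29-fold, at -0.37 on the log2 scale (SE 0.0502, limma, Benjamini-Hochberg adjusted p = 0.000939), and Nrp2 was higher by 0.33 (SE 0.0640, 1.26-fold, limma, Benjamini-Hochberg adjusted p = 0.00607), each in 3 of 3 libraries. Vegfb had a difference of -0.02 and Pgf one of 0.32 at 14 and 21 pooled counts. Relative to the median the differences of Nrp1 and Nrp2 were -0.51 and 0.19. The direction of both held under every scaling tried, but with median-ratio scaling Nrp2 differed by 0.17 at an adjusted p of 0.125 (limma, Benjamini-Hochberg), while the adjusted p of Nrp1 reached at most 0.00482 over its alternatives.

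The difference of the LPS response between genotypes in BMDMs was called for 1 of 6 members, Vegfa, against 2.93% of all genes. Its fall with LPS was smaller in knockout, by 0.60 on the log2 scale (SE 0.0824, limma, Benjamini-Hochberg adjusted p = 0.00282), or by 0.49 relative to the median of 0.11. It came under the fold threshold with median-ratio scaling, at 0.50, and with edgeR, DESeq2 and a pseudocount of 1, and without replicate 2 of wild type with PBS, replicate 1 of wild type with LPS or replicate 3 of knockout with LPS, down to 0.57. Nrp1 had an interaction of -0.32 (SE 0.0709, limma, Benjamini-Hochberg adjusted p = 0.0279), under the fold threshold. Flt1 had one of 0.04 (SE 0.159, limma, Benjamini-Hochberg adjusted p = 0.915), which turned negative with median-ratio scaling, edgeR and DESeq2, down to -0.12, so its higher level in knockout was not shown to depend on LPS.

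**Figure D3:**
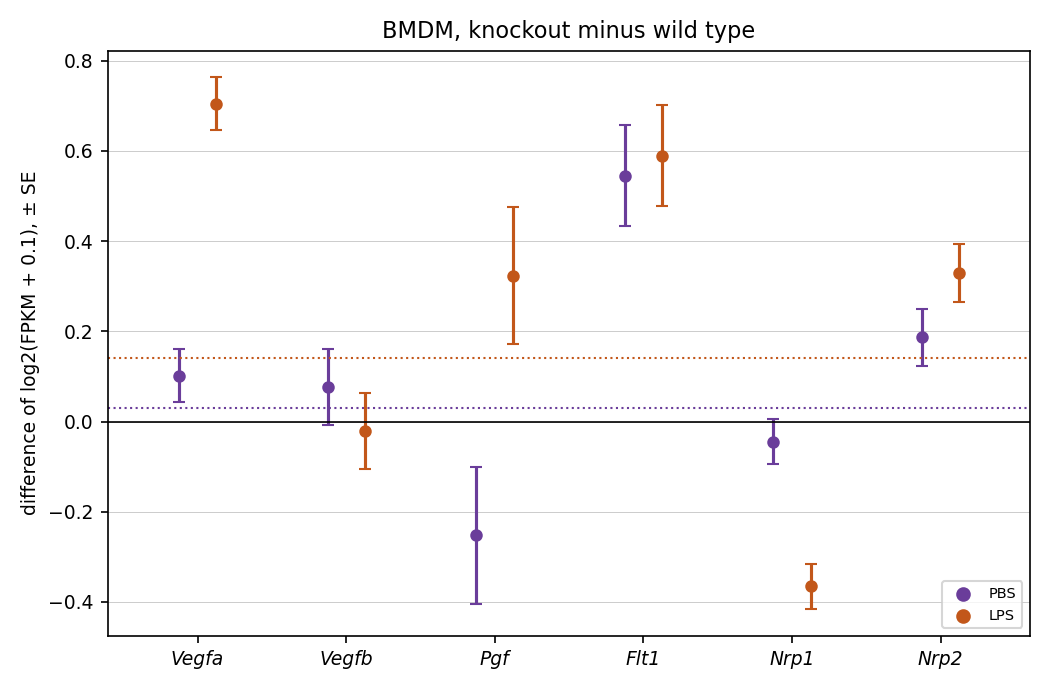
Differences between knockout and wild-type BMDMs for the 6 genes with PBS (purple) and with LPS (orange). The y axis gives the difference of mean log2(FPKM + 0.1) with its standard error from limma, and dotted lines mark the median of all genes with a mean of at least 1 FPKM. Flt1 is higher in knockout by 0.55 with PBS and 0.59 with LPS, whereas Vegfa differs by 0.10 with PBS and 0.70 with LPS.

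For RAW264.7 the libraries labelled knockout were compared with wild type for the 5 other members, and since the set was picked in this contrast nothing is read from the counts. With PBS 1 of 5 was called, Nrp1, against 8.55% of all genes. Its difference of 1.27 (SE 0.351, limma, Benjamini-Hochberg adjusted p = 0.0464) rests on replicates 2 and 3, and without replicate 1 Nrp1, Nrp2 and Vegfb were called, at 1.78, 0.72 and -0.67, against 20.5% of all genes in that fit. Leaving out any 1 of the other 11 libraries lost the call of Nrp1, whose difference then ranged from 1.00 upward. The call was also lost with a pseudocount of 0.01, as TPM, with median-ratio scaling and with replicate number as a block.

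With LPS 2 of 5 were called, against 17.3% of all genes. Nrp2 was higher by 0.75 (SE 0.188, limma, Benjamini-Hochberg adjusted p = 0.0183) and Vegfb lower, at -0.76 (SE 0.149, limma, Benjamini-Hochberg adjusted p = 0.00649). Vegfb lost its call as TPM, at -0.53, and Nrp2 lost its call without any 1 of the wild-type libraries with LPS or without replicate 2 labelled knockout with LPS, where the adjusted p reached at most 0.0562. The FPKM summed over all genes was, with LPS, 310662, 309687 and 311278 in the labelled knockout and 363161, 364634 and 367540 in wild type. As FPKM divides counts by length, a lower sum means that more of the counts lie on longer genes. Exonic lengths were 1605 bases for Vegfb, 9785 for Nrp1 and 11842 for Nrp2. The part of gene length in the genotype differences with either treatment was not tested.

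The difference of the LPS response between genotypes in RAW264.7 was called by limma for 0 of 5 members, against 1.95% of all genes. 1 member had an unadjusted p under 0.05, DESeq2 and edgeR after its filter called 0, and edgeR without a filter called 1, Nrp1. The Nrp1 difference was -1.16 (SE 0.496, limma, Benjamini-Hochberg adjusted p = 0.457), and without replicate 1 labelled knockout with PBS it was -1.67 and called, against 3.44% of all genes.

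Among the other VEGF ligands and receptors, Vegfc, Vegfd, Kdr and Flt4, Kdr encodes VEGFR2, the main signalling receptor for VEGF-A. Kdr rose with LPS in BMDMs from 0.977 ± 0.0208 to 5.06 ± 0.445 FPKM in wild type (SD, n = 3, log2 change 2.26) and from 0.590 ± 0.0889 to 3.52 ± 0.201 in knockout (log2 change 2.40). Every knockout BMDM library lay below every wild-type library of the same treatment for Kdr and above for Flt1, but limma called Kdr only with PBS and Flt1 only with LPS. Of this list limma called 1 of 4 as lower in knockout with PBS, Kdr, against 1.82% of all genes, and 1 of 4 as lower with LPS, Flt4, against 4.76%, where median-ratio scaling, edgeR and DESeq2 also called Kdr. In RAW264.7 Kdr lay at or below 0.0133 FPKM in every group. Vegfc, a ligand of Flt4, rose with LPS in RAW264.7 from 0 to 0.880 ± 0.352 FPKM in wild type and from 0.113 ± 0.0473 to 0.863 ± 0.0473 in the libraries labelled knockout, while in BMDMs it was called as lower with LPS in wild type, at 0.123 and 0.0267 FPKM. Genes of this list under 1 FPKM were named after their values were seen.

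Of the list in wild-type BMDMs with LPS, 2 of 4 genes were called higher and 1 lower, against 40.4% of all genes called, with a list median of 0.57 against -0.30 for all genes, and median-ratio scaling, edgeR and DESeq2 called only the 2 higher genes. In wild-type RAW264.7 1 of 4 was higher, against 18.3% of all genes, with 0.02 against -0.05. For the difference of the LPS response, limma called 0 of 4 in both cell types, against 2.93% of all genes in BMDMs and 1.95% in RAW264.7, with 2 at an unadjusted p under 0.05 in BMDMs and 1 in RAW264.7, where edgeR without a filter and DESeq2 each called 1. In RAW264.7 1 of 4 was higher in the libraries labelled knockout with PBS, Vegfc, against 8.55% of all genes, with a difference of 1.07, and of 0.94 without replicate 1.

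Class 3 semaphorins, the other ligands of neuropilins, were scarce. The 7 genes had means of at most 0.217 FPKM in every group of either cell type. Plexins, which pair with neuropilins to signal for semaphorins, were present, led by Plxnd1 and Plxna1. In BMDMs Plxna1 was at 26.0 ± 3.75 FPKM in wild type with LPS and 40.8 ± 0.805 in knockout with LPS (log2 difference 0.66, limma, Benjamini-Hochberg adjusted p = 0.000918), a call lost with median-ratio scaling, edgeR and DESeq2, and Plxna2 fell with LPS from 2.40 to 0.420 FPKM in wild type. In RAW264.7 Plxnd1 fell with LPS from 21.6 ± 0.945 to 4.94 ± 0.361 FPKM in wild type and from 28.2 ± 5.93 to 3.66 ± 0.0231 in the libraries labelled knockout, where the PBS mean without replicate 1 was 31.6. With LPS in wild type 3 of 11 genes of this list were called lower in BMDMs and 1 of 8 higher and 2 lower in RAW264.7, against 40.4% and 18.3% of all genes. The BMDM count depends on the scaling: median-ratio scaling called 2 of 11 higher and 2 lower, edgeR after its filter 2 of 7 higher and 3 lower, and DESeq2 4 of 12 higher and 3 lower. In knockout BMDMs with LPS limma called 3 of 11 higher than in wild type, against 4.76% of all genes, with a list median of 0.09 against 0.04 for all genes, but edgeR and DESeq2 called only 1, Plxna2.

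Oxygen-sensing genes act upstream of Vegfa. Hif1a, the oxygen-regulated subunit of HIF-1, rose with LPS in BMDMs from 25.4 ± 0.644 to 57.2 ± 0.463 FPKM in wild type and from 25.5 ± 0.218 to 51.2 ± 1.48 in knockout, while Vegfa fell in both. Egln1 (PHD2), a prolyl hydroxylase that marks HIF subunits for destruction, fell with LPS in wild type from 13.4 ± 0.225 to 5.72 ± 0.0794 FPKM, a call lost with median-ratio scaling, edgeR and DESeq2, and was at 11.3 ± 0.471 in knockout with LPS (log2 difference from wild type 0.97, limma, Benjamini-Hochberg adjusted p = 6.25e-06). Its LPS response differed between genotypes by 0.88 (limma, Benjamini-Hochberg adjusted p = 0.000121), in the same direction as that of Vegfa. In wild-type BMDMs with LPS 1 of 8 genes of the list was called higher and 4 lower, against 40.4% of all genes. The list median of -0.73 is that of all genes with a mean of at least 1 FPKM, also -0.73, a level that 7 of the 8 reached. DESeq2 and median-ratio scaling each called 3 higher and 1 lower. In RAW264.7 Egln3 (PHD3) was at 1.35 ± 0.152 FPKM in wild type with PBS and 0.0167 ± 0.0153 in the libraries labelled knockout, and with LPS at 0.507 ± 0.0950 and 0, near the floor as Flt1 is. Of the 9 genes tested there, limma called 1 lower in the labelled knockout with PBS, Egln3, against 8.55% of all genes. Without replicate 1 with PBS it called 2, Arnt as higher and Egln3 as lower, against 20.5% of all genes in that fit. With LPS and all libraries limma called 2 higher, Hif1a and Hif1an, and 1 lower, Egln3, against 17.3% of all genes. Hif1a was at means of 44.0 FPKM in the labelled knockout and 27.6 in wild type with LPS, and Hif1an, a hydroxylase that restrains HIF activity, at 7.87 and 5.05. Hif1a kept this call under all 21 alternatives and Hif1an under 20, while edgeR, DESeq2 and median-ratio scaling called Egln1 as lower too.

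Hypoxia targets known beside Vegfa were Adm, Ankrd37, Bnip3, Ndrg1, Pdk1 and Slc2a1. In knockout BMDMs with LPS 3 of 6 were called higher than in wild type, as Vegfa was, against 4.76% of all genes, with a list median of 0.49 against 0.14 for all genes with a mean of at least 1 FPKM. Slc2a1 (GLUT1), a glucose transporter, was at 39.3 ± 0.698 against 20.8 ± 0.427 FPKM, Bnip3, a mitophagy receptor, at 18.0 ± 0.437 against 10.4 ± 0.539, and Pdk1, a kinase that restrains pyruvate entry into mitochondria, at 7.68 ± 0.0777 against 4.99 ± 0.352 (SD, n = 3). In the RAW264.7 libraries labelled knockout with LPS 4 of 6 were called lower, against 17.3% of all genes, with a median of -0.70 against -0.02 for all genes with a mean of at least 1 FPKM, among them Ndrg1 at 5.54 ± 0.257 against 14.8 ± 1.02 FPKM, while Vegfa differed by 0.02. That Vegfa value turned negative in edgeR without a filter and was 0.26 as TPM, and it was not called. Adm and Pdk1 were higher in these libraries and not called, at 9.07 and 4.96 FPKM against 6.42 and 4.57. With PBS Adm was called lower, at 3.41 against 6.71 FPKM. Its LPS response differed between genotypes by 1.45 (limma, Benjamini-Hochberg adjusted p = 0.00223), a call kept under all 21 alternatives. Egln1, Slc2a1 and Bnip3 kept their call in knockout BMDMs with LPS under all 21 alternatives, and Pdk1 under 15. In the RAW264.7 libraries labelled knockout with LPS Ndrg1 kept its call under all 21, Bnip3 and Slc2a1 lost theirs as TPM, and Ankrd37 kept its call under 8 of 21.

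**Figure D4:**
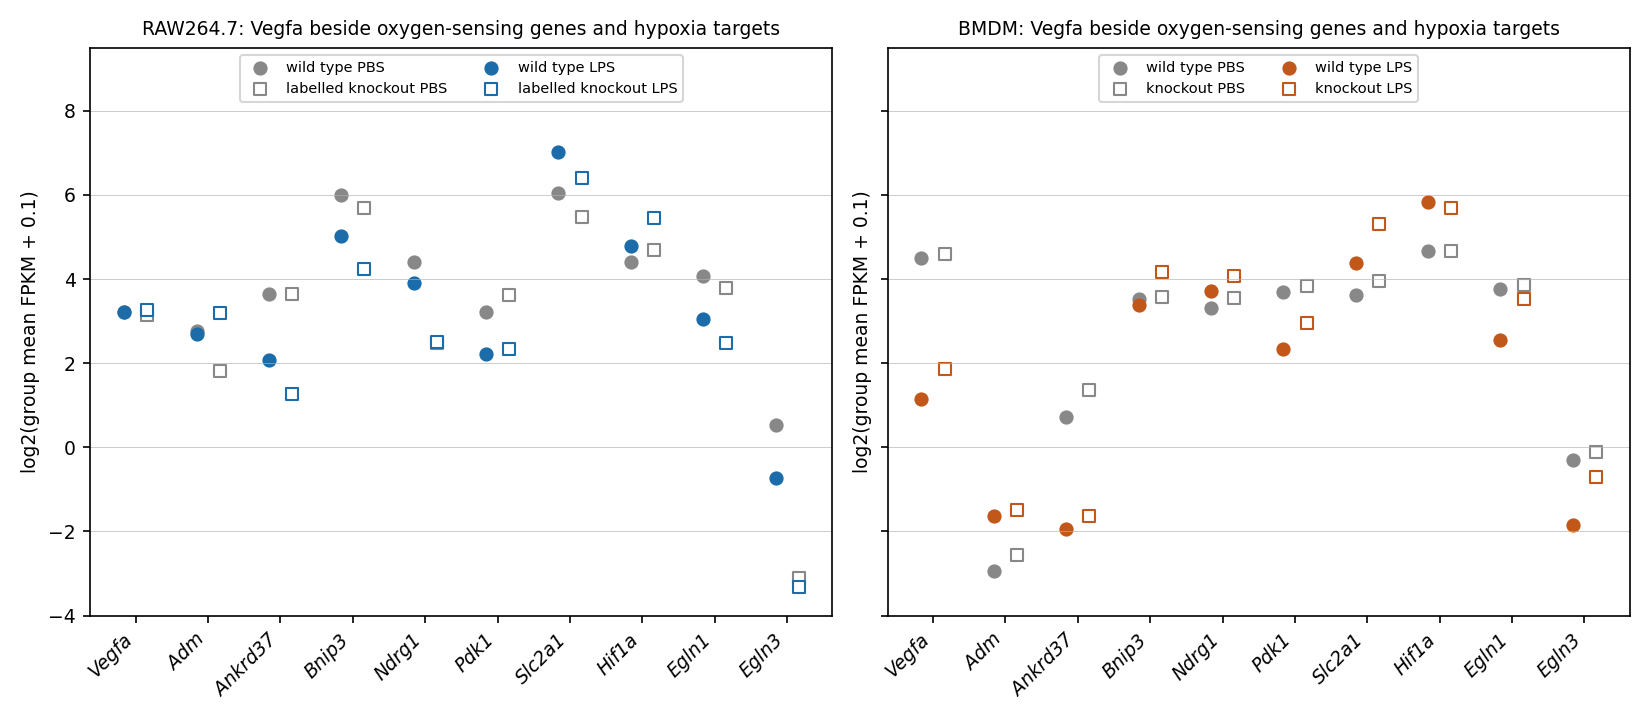
Vegfa beside 6 hypoxia targets and 3 oxygen-sensing genes. The y axis gives log2(group mean FPKM + 0.1), for RAW264.7 on the left and BMDMs on the right, with PBS in grey, LPS in colour, filled circles for wild type and open squares for knockout. With LPS in BMDMs the squares of Vegfa, Bnip3, Pdk1, Slc2a1 and Egln1 lie above the circles, and in RAW264.7 Egln3 is near the floor in the libraries labelled knockout.

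Among mediators that act downstream of VEGF receptors, Src, a tyrosine kinase, rose with LPS from 0.453 ± 0.102 to 28.4 ± 1.21 FPKM in wild-type BMDMs and from 0.03 ± 0.01 to 7.41 ± 0.230 in wild-type RAW264.7. Plcg1, a phospholipase that VEGF receptors activate, fell from 2.63 ± 0.104 to 0.523 ± 0.0651 FPKM in wild-type BMDMs and from 2.85 ± 0.263 to 0.890 ± 0.113 in wild-type RAW264.7. Of this list 2 of 11 genes were called higher and 6 lower with LPS in wild-type BMDMs, against 40.4% of all genes, with a median of -0.65 against -0.73 for all genes with a mean of at least 1 FPKM. Of the 6 lower genes only Plcg1 kept its call with median-ratio scaling, edgeR and DESeq2, each of which called 4 of the 11 in all, or 3 in edgeR without a filter. In wild-type RAW264.7 2 of 12 were higher and 3 lower, against 18.3% of all genes, with -0.23 against -0.21, and 1 of the 3, Shc1, lost its call under the same scalings. In the angiopoietin system, Angptl4 fell with LPS from 1.17 ± 0.0839 to 0.0133 ± 0.0153 FPKM in wild-type BMDMs and from 3.58 ± 0.424 to 0.357 ± 0.130 in wild-type RAW264.7, and Angpt2 fell in wild-type RAW264.7 from 7.18 ± 0.304 to 0.393 ± 0.0874. With LPS in wild type 1 of 5 genes of this system was called higher and 2 lower in BMDMs and 2 of 4 lower in RAW264.7, against 40.4% and 18.3% of all genes.

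In knockout BMDMs with PBS limma called 0 genes of the lists of semaphorins and plexins, oxygen sensing, hypoxia targets, signal mediators and the angiopoietin system, against 1.82% of all genes. At an unadjusted p under 0.05 these lists had 2 of 11, 0 of 8, 4 of 6, 1 of 11 and 1 of 5 genes, and edgeR called 1 hypoxia target and no other, and DESeq2 none.

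The genes most like each member were taken by Pearson's r of log2(FPKM + 0.1) over the 12 libraries of a cell type, which share 4 groups. In RAW264.7 Flt1 was most like Ddx3y (r = 0.9981), Hspb7 (r = 0.9915) and Eif2s3y (r = 0.9913) among 12307 genes, of which 175 had an r above 0.9. Ddx3y and Eif2s3y lie on chromosome Y and had 0 counts in all 6 libraries labelled knockout, replicate 1 with PBS included, and Ddx3y was at 5.00, 4.64 and 3.92 FPKM in wild type with PBS and 7.29, 6.30 and 7.75 with LPS. Hspb7, on chromosome 4, had 7 to 15 counts in the libraries labelled knockout and 185 to 287 in wild type. Flt1 is therefore 1 of several genes near the floor in all 6 libraries labelled knockout.

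In BMDMs Flt1 was most like Map4 (r = 0.9859), Slc24a5 (r = 0.9695) and Eif3c (r = 0.9682) among 11437 genes, of which 116 had an r above 0.9. Vegfa was most like Dcaf17, Cab39 and Tmx4 (r = 0.9994, 0.9993 and 0.9993), and Nrp1 most like Cdk19, Gpr146 and Nlrp1b (r = 0.9996, 0.9991 and 0.999), but 6812 and 6051 genes had an r above 0.9 with them, as the LPS groups lie apart for many genes. Nrp2 was most like Actn1, Gfpt1 and St3gal1 in BMDMs (r = 0.9987, 0.9987 and 0.9986) and most like Adam17, Gvin-ps1 and Septin11 in RAW264.7 (r = 0.9976, 0.9969 and 0.9959). An r above 0.9 with Nrp2 was found for 1332 genes in BMDMs and 690 in RAW264.7. Adam17 encodes a sheddase of membrane proteins and rose with Nrp2 from 15 FPKM in wild type with PBS to 54.8 in the libraries labelled knockout with LPS. In RAW264.7 Nrp1 was most like Polk, Cnot6l and Acap2 (r = 0.976, 0.975 and 0.9745), with 375 genes above 0.9. Vegfa was there most like Mir7682, Gm7335 and Cog1 (r = 0.8087, 0.806 and 0.7675), with no gene above 0.9.

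Among the members, Nrp2 ran opposite to Vegfb over the 12 RAW264.7 libraries (r = -0.99) and to Nrp1 over the 12 BMDM libraries (r = -0.988). Flt1 and Nrp2 had an r of 0.901 in BMDMs and -0.298 in RAW264.7, where Flt1 is near the floor in 6 libraries. These values describe libraries in 4 groups and carry no p.

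The tables list 29 other genes with a symbol that lie within 500 kb of Flt1, of which 12 had an FPKM of 0 in every library and 16 were tested in each cell type, not all of them the same. With PBS, in RAW264.7 libraries labelled knockout, limma called 0 of 16, against 8.55% of all genes, and without replicate 1 it called 4, namely Pan3, Pomp, Polr1d and Gm43461, against 20.5% of all genes in that fit. With LPS it called 4, namely Pan3, Pomp, Slc46a3 and Gm42883, against 17.3% of all genes. With LPS Pan3, whose end lies 13102 bases from Flt1, was at 5.54 FPKM against 3.44 in wild type, and Pomp, 134450 bases away, at 22.9 against 40.3, so these neighbours of Flt1 were still expressed. In BMDMs limma called 0 of 16 between genotypes under either treatment, against 1.82% of all genes with PBS and 4.76% with LPS. Reads of overlapping or antisense genes could be shared with Flt1, since the strand setting of the counts is not stated.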

How the data were processed

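The authors deposited 2 tables of 56691 genes, RAW264.7 and BMDM, and per the file headers each holds a read count and an FPKM per gene and library. The authors deposited count values made from poly(A) RNA read as 2 x 150 base pairs, and the aligner, the counting program and the strand setting are not named. The authors deposited FPKM values made from these counts, and of the values above 50 counts, the only ones checked, 99.9% and 99.5% lay within 1% of those recomputed from count, exonic length and library total.

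Each table was fitted on its own with limma (Benjamini-Hochberg) on log2(FPKM + 0.1), 4 groups, 8 residual degrees of freedom. edgeR and DESeq2 were run on the counts as alternatives. Other genes were named from lists written before testing when called and at a mean of at least 1 FPKM, or after their values were seen, as said there. The members and lists were chosen with earlier results of these data known. The code was tested on simulated data.

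Versions: R 4.3.3, limma 3.58.1, edgeR 4.0.16, DESeq2 1.42.0, data.table at 1.17.8, Python 3.11.15, NumPy 2.4.6, pandas 2.3.3, SciPy 1.17.1, Matplotlib 3.10.9.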

Additional observations from a re-analysis of the deposited data

Results flagged for a closer look

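The fall of Vegfa with LPS differed between genotypes in BMDMs, with an interaction of 0.603 on the log2 scale. It is listed here because limma called the interaction, so its LPS response is given for each genotype apart. It was called with 4 of 9 other settings and in 9 of 12 fits that left out a library, and the cause was not tested.

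Nrp1 with PBS was above wild type in all 3 RAW264.7 libraries labelled knockout and below it in all 3 knockout BMDM libraries, and it is listed for that. Its difference was 1.27 (SE 0.351, limma, Benjamini-Hochberg adjusted p = 0.0464) in RAW264.7. In BMDMs it was -0.0445 (SE 0.0502, limma, Benjamini-Hochberg adjusted p = 0.757), smaller than its standard error, so no direction is shown there. The difference between cell types was not tested. The RAW264.7 value rests on replicates 2 and 3, and was 1.78 without replicate 1. Its call was lost with a pseudocount of 0.01, as TPM, with median-ratio scaling and with replicate number as a block.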

How the results depend on the processing

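Each result was fitted again with other pseudocounts (0.01 and 1), a filter of at least 1 FPKM in at least 3 libraries, TPM, median-ratio size factors, edgeR with and without a filter, DESeq2, replicate number as a block, and without each library in turn. The cause of any change was not tested.

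RAW264.7 labelled knockout with PBS: 1 of 5 members called became 0 with a pseudocount of 0.01, as TPM, with median-ratio factors and with the replicate block. It was also 0 with the FPKM filter, which removes Nrp1 before the test. Leaving out a library gave 0 to 3, and 3 was without replicate 1 labelled knockout with PBS. Vegfa, at -0.08, became 0.106 as TPM.

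RAW264.7 labelled knockout with LPS: 2 of 5 called became 1 as TPM, and leaving out a library gave 1 to 2. Vegfa, at 0.02, became -0.0188 in edgeR without a filter and 0.257 as TPM, and ran from -0.0615 to 0.14 with a library left out. With LPS in wild-type RAW264.7, Vegfa, at 0.01, became -0.0176 as TPM and 0.245 with median-ratio factors, and ran from -0.0301 to 0.0718 with a library left out.

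RAW264.7 difference of the LPS response: 0 of 5 called became 1 in edgeR without a filter, and leaving out a library gave 0 to 1.

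BMDM knockout with PBS: 0 of 6 called became 1 with a pseudocount of 0.01, as TPM, in edgeR with and without a filter and in DESeq2, and leaving out a library gave 0 to 1. BMDM knockout with LPS: 2 of 6 called became 0 with a pseudocount of 1, median-ratio factors, edgeR with its filter and DESeq2, and 1 in edgeR without a filter, and leaving out a library gave 1 to 2. Vegfb, at -0.02, ran from -0.115 to 0.0605 with a library left out.

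BMDM difference of the LPS response: 1 of 6 called became 0 with a pseudocount of 1, median-ratio factors, edgeR with and without a filter and DESeq2, and leaving out a library gave 0 to 1. Flt1, at 0.04, became -0.001713 with a pseudocount of 0.01, -0.0227 with median-ratio factors, -0.112 and -0.109 in edgeR with and without a filter, and -0.12 in DESeq2, and ran from -0.0602 to 0.154 with a library left out.

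Of all genes tested, the percent called moved more than 1.5-fold with other settings, in part because a filter changes how many genes are tested. RAW264.7 labelled knockout with PBS had 8.55% (5.51 to 22.8, and 4.85 to 20.5 with a library left out) and with LPS 17.3% (11.4 to 33.0). LPS gave 18.3% in wild-type RAW264.7 (13.1 to 33.9) and 22.1% in the labelled knockout (16.1 to 39.4), and the difference of the response 1.95% (1.27 to 4.06, and 1.6 to 3.44). BMDM knockout had 1.82% with PBS (0.949 to 3.77) and 4.76% with LPS (1.63 to 9.1), LPS 40.4% in wild type (27.9 to 69.4) and 38.9% in knockout (26.2 to 65.6), and the difference of the response 2.93% (1.49 to 6.33). In counts, the 2287 genes called for RAW264.7 labelled knockout with PBS became 1298 to 5495 with a library left out.

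The labels do not say that replicate numbers pair the libraries. After group means were removed, 0 of 18 pairs with the same number had r above 0.1 in either cell type, so the replicate block is an alternative only. As a hint of weak pairing from the data, 8 of 12 RAW264.7 and 7 of 12 BMDM libraries had their highest mean r with the libraries of other groups that share their number, and the median r was 0.00856 for the same and -0.0108 for different numbers in RAW264.7, and 0.0287 and -0.0146 in BMDMs.

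Each group had 3 libraries, and whether these are separate cultures or animals is not stated. RAW264.7 clones are compared with wild-type cells of the same named supplier, and whether both come from 1 stock is not stated, and Olfml3 goes against the label there. Counts are per gene, so isoforms are not separated, and the strand of counting is not stated.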
